A study of Mus musculus with 6 samples.

Results

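The pentose phosphate and nucleotide synthesis module is a set of 35 genes, listed by symbol, out of 30281 gene symbols measured by RNA-Seq in 6 mouse libraries. It holds 9 genes of the pentose phosphate pathway and ribose activation, 13 of purine synthesis and salvage, 6 of pyrimidine synthesis and salvage, and 7 of deoxynucleotide and nucleoside triphosphate supply. The libraries came from Tsc2-/- and Tsc2+/+ mouse embryo fibroblasts (MEFs), both labelled p53-/-, and from 2 kidney epithelial lines labelled Tsc2-null, MKOC and TJ, each untreated or given 100 nM rapamycin, an mTORC1 inhibitor, for 18 hr. The labels place the cells in serum-free medium with albumin, with diluent as the control, and describe TJ cells as derived from a secondary tumor in C57BL6 mice. Each condition had 1 library, nothing in the labels gives the number of clones behind a line, and no kidney line with intact Tsc2 was analysed here.

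Nucleotides are built on ribose 5-phosphate, which the pentose phosphate pathway draws from glucose while it also reduces NADP. Purines are assembled stepwise on phosphoribosyl pyrophosphate (PRPP) and pyrimidines as a free ring that is then joined to it, and salvage enzymes return free bases and nucleosides to the pools. Ribonucleotide reductase makes the deoxynucleotides for DNA synthesis, and the complex mTORC1, which the TSC1-TSC2 complex holds back, is known to stimulate several of these steps through transcription and phosphorylation.

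Promoter sequences are shown for a selection of the members that held a searched motif, to describe the upstream sequence of genes measured here. Whether any of it bears on the changes with rapamycin was not tested. RefSeq promoters of build GRCm38.p6 matched 32 of the 35 members, with 39 starts in all. The 250 bases before each start were read on both strands for the E-box CACGTG, bound by Myc family and USF proteins, for the E2F-type letters TTTCCCGC, TTTGGCGC and TTTCGCGC, for the ATF4 composite TGATGCAA and for the antioxidant core TGACNNNGC. The E-box stood in 6 of the 39 member promoters, belonging to Atic, Tyms, Paics, Impdh2 and Nme1, and in 1978 of all 32851 promoters (6.02%). The antioxidant core stood in 5 member promoters (Uck2, Cad, Nme1, Rrm2 and G6pdx) and in 10.2% of all promoters. E2F-type letters were found for 1 member, Ppat, at 2 places, against 1.53% of all promoters, and the ATF4 composite for no member, against 0.791% of all. These matches describe letters within these windows, and binding was not measured.

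The stretches below run 5′ to 3′ on the strand of the gene, with the motif in capitals. Each lies within the 250 bases before a start and spans 100 bases without an annotated exon where such a stretch held the motif, and 30 bases around the motif elsewhere. The first 4 are the longer stretches of Tyms (chr5:30073626-30073725, minus strand), Cad (chr5:31054680-31054779, plus strand), Rrm2 (chr12:24708141-24708240, plus strand) and the second start of Nme1 (chr11:93968026-93968125, minus strand), genes that were at least 2-fold higher in Tsc2-/- MEFs by TPM as deposited and fell with rapamycin, with limits for Cad, Rrm2 and Tyms given beside their values.
Tyms, E-box: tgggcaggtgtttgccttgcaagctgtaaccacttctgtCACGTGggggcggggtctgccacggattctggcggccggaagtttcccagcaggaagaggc
Cad, antioxidant core: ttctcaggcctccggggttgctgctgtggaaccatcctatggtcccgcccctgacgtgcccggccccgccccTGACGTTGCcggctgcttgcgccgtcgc
Rrm2, antioxidant core on the other strand: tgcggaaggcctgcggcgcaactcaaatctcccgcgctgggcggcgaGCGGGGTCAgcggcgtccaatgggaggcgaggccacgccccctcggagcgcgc
Nme1, E-box before the second start: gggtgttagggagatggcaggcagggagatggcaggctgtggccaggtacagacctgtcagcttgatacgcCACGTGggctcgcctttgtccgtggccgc
The E-box of Nme1 in that stretch sat 24 to 29 bases before the start. Other E-boxes sat 2 to 7 bases before the start in Atic (chr1:71557126-71557155, plus strand), 105 to 110 bases before it in Impdh2 (chr9:108560314-108560343, plus strand) and 13 to 18 bases before the first start of Nme1 (chr11:93968273-93968302, minus strand).
Atic, E-box: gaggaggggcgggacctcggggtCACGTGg
Impdh2, E-box: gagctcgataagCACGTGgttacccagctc
Nme1, E-box before the first start: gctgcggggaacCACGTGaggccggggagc
Ppat and Paics are shown because they lie head to head on chromosome 5, with annotated gene spans that overlap from 76951307 to 76951578. A further reason is that Ppat fell with rapamycin while Paics did not pass the test. The E2F-type letters (chr5:76951771-76951800, minus strand; chr5:76951718-76951747, minus strand) lie before the start of Ppat on the side of the Paics gene body, and the E-box of Paics (chr5:76951087-76951116, plus strand) lies on the side of the Ppat gene body.
Ppat, E2F-type on the other strand, farther from the start: gagcagaccgcGCGGGAAAaaagggcagtg
Ppat, E2F-type on the other strand, nearer to the start: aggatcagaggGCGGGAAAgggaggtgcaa
Paics, E-box: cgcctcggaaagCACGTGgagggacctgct
The antioxidant cores of Uck2, and of G6pdx and Nme1 on the other strand, are counted above and not printed.

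The RNA of the targeted gene was also checked. Tsc2 was listed at 22.6 TPM in the Tsc2+/+ library and 10.5 TPM in the Tsc2-/- library of MEFs, and at 49.1 and 19.5 TPM in untreated and treated MKOC cells and 44.0 and 19.1 TPM in untreated and treated TJ cells, where TPM is the share of transcripts in a library after correction for length. Tsc2 RNA was thus lower in the Tsc2-/- than in the Tsc2+/+ MEFs, while both untreated lines labelled Tsc2-null lay above the Tsc2+/+ MEFs, and it fell with rapamycin in the edgeR test used for the members (log2 fold change -1.27 ± 0.10, adjusted p = 2.28e-05). Sums per gene do not show whether the deleted exons were read. Trp53 was at 26.3 and 28.5 TPM in the MEFs labelled p53-/-. Estimated counts summed to between 22887020 and 37505004 per library, member counts ran from 122 to 41438, and the 95% Wilson intervals of member TPM had half-widths between 0.962% and 17.8%, which cover counting error only. Of 16 kidney epithelial markers, 9 reached 1 TPM in each kidney library (summed 1513 to 2539 TPM), against 2 and 4 in the MEFs. Cdh16 and Pax8 were high in the kidney lines. Epcam and the tubule segment markers Umod, Slc12a1, Slc12a3 and Aqp2 were below 1 TPM in every library. Krt19, Lrp2 and Aqp1 went the other way. Krt19 was at 55.6 TPM and Lrp2 at 6.02 TPM in Tsc2-/- MEFs, and both were below 1 TPM in the kidney libraries. Aqp1 was at 61.3 TPM in Tsc2+/+ and 0.475 TPM in Tsc2-/- MEFs, against 8.74 to 28.0 TPM in the kidney libraries. Of 10 fibroblast markers, 7 reached 1 TPM in Tsc2+/+ and 9 in Tsc2-/- MEFs, against 2 or 3 in the kidney libraries, although Vim alone brought the list to between 3617 and 7575 TPM there, beside 5346 and 3623 TPM in the MEFs. All 6 mesothelial markers reached it in Tsc2-/- MEFs (summed 478 TPM) against 1 in Tsc2+/+ MEFs (summed 2.66 TPM) and 1, Msln, in the kidney libraries (69.5 to 150.4 TPM). Macrophage, skeletal muscle and endothelial lists summed to at most 35.3, 22.9 and 3.76 TPM in any library.

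The members took up 0.305% of all TPM in Tsc2+/+ MEFs and 0.419% in Tsc2-/- MEFs, 0.523% and 0.399% in untreated and rapamycin-treated MKOC cells, and 0.502% and 0.411% in untreated and treated TJ cells. Every member was detected in every library. Nme2, a nucleoside diphosphate kinase, was the highest member in both MEF libraries (607 and 821 TPM), and Tkt, the transketolase that exchanges carbon units between pentoses and glycolytic intermediates, was the highest in the 4 kidney libraries (515 to 695 TPM). Adssl1, the muscle-type adenylosuccinate synthase, was the lowest member in both MEF libraries. The widest range across libraries belonged to Rrm2, 28.9-fold between its highest and lowest TPM, followed by Adssl1 (19.0-fold), Tk1 (8.69-fold), Tyms (6.27-fold) and Taldo1 (5.37-fold). The narrowest belonged to Ctps (1.35-fold) and Paics (1.36-fold). MEF and kidney libraries differed in cell type and line at once, and only the MEFs were labelled p53-/-. Tsc2+/+ MEFs also differed from the kidney lines in the Tsc2 label. These sources of a difference in level cannot be told apart.

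**Figure D1:**
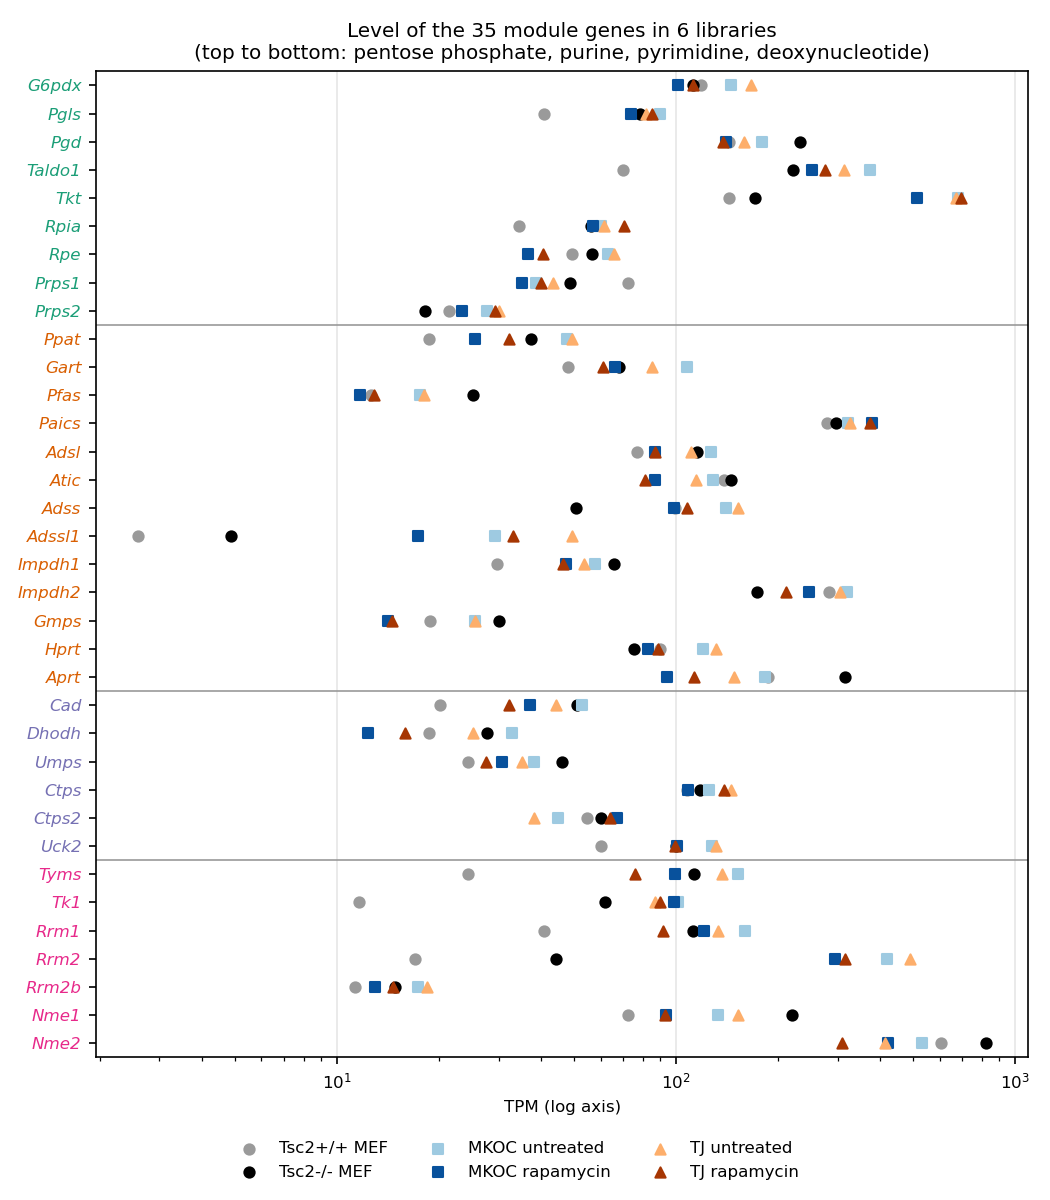
TPM of each of the 35 members (rows, grouped by branch) in the 6 libraries, on a log axis; each point is 1 library. Rrm2 spans 17.0 to 491 TPM, whereas Ctps stays between 108 and 146 TPM.

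Rapamycin lowered the RNA of 24 of the 35 members and raised that of 1, Ctps2, while 10 did not pass the test. The question here was how an mTORC1 inhibitor changes these genes in cells labelled Tsc2-null. The test was edgeR's quasi-likelihood test on the 4 kidney libraries with the cell line as a term, fitted on all 12952 genes that passed the filter on low counts, with Benjamini-Hochberg adjustment over all of them and a threshold of 0.05. All 35 members passed the filter. Fold changes come from this fit to estimated counts and can differ from ratios of the TPM values, which also weigh transcript length. Over all genes, 17.4% were called lower and 17.5% higher. The median log2 fold change was -0.47 over the members and 0.02 over all genes tested, and 29 of 35 members were below 0 in both lines, against 37.9% of all genes. The 2 lines were the replicates, which leaves 1 residual degree of freedom, and nothing says that the libraries of a line came from separate cultures. Without the line as a term, 11 members were called lower and Ctps2 higher, beside 5.53% and 4.32% of all genes in that fit. These libraries measure RNA from whole cultures, so fewer cells of a kind and less RNA per cell cannot be told apart. Markers of cell type also moved with the treatment. Of 11 kidney epithelial markers tested, 3 rose, Krt8 (log2 fold change 0.79 ± 0.10, adjusted p = 0.000426), Krt18 (log2 fold change 0.78 ± 0.10, adjusted p = 0.000425) and Cdh16 (log2 fold change 0.37 ± 0.11, adjusted p = 0.0226). Of 8 fibroblast markers tested, 3 rose, Vim (log2 fold change 0.66 ± 0.12, adjusted p = 0.00279), Dcn (log2 fold change 0.82 ± 0.13, adjusted p = 0.00135) and Col3a1 (log2 fold change 1.53 ± 0.52, adjusted p = 0.0425), the last at no more than 1.07 TPM in the kidney libraries. Msln of the mesothelial list (log2 fold change 0.70 ± 0.12, adjusted p = 0.00168) and Csf1r of the macrophage list (log2 fold change 0.45 ± 0.12, adjusted p = 0.0179) rose as well. The part of these markers in the changes of the members was not tested.

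By branch, 4 of 9 pentose phosphate genes, 11 of 13 purine genes, 4 of 6 pyrimidine genes and 5 of 7 deoxynucleotide genes were called lower, and the 1 higher call was in the pyrimidine branch. The branch medians of the log2 fold change were -0.19, -0.57, -0.41 and -0.47 in that order. Summed over a branch, the 13 purine genes went from 1628 to 1258 TPM in MKOC cells and from 1570.4 to 1261 TPM in TJ cells. The 6 pyrimidine genes went from 422 to 357 TPM in MKOC and from 419 to 378 TPM in TJ cells, while their median level was 48.8 and 52.1 TPM in untreated and treated MKOC and 41.2 and 48.1 TPM in untreated and treated TJ cells. The deoxynucleotide genes went from 1515 to 1142 TPM in MKOC and from 1434 to 989 TPM in TJ cells. For the pentose phosphate genes the lines differed more, with sums from 1661 to 1235 TPM in MKOC and from 1592 to 1486 TPM in TJ cells, where Tkt made up the largest share.

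**Figure D2:**
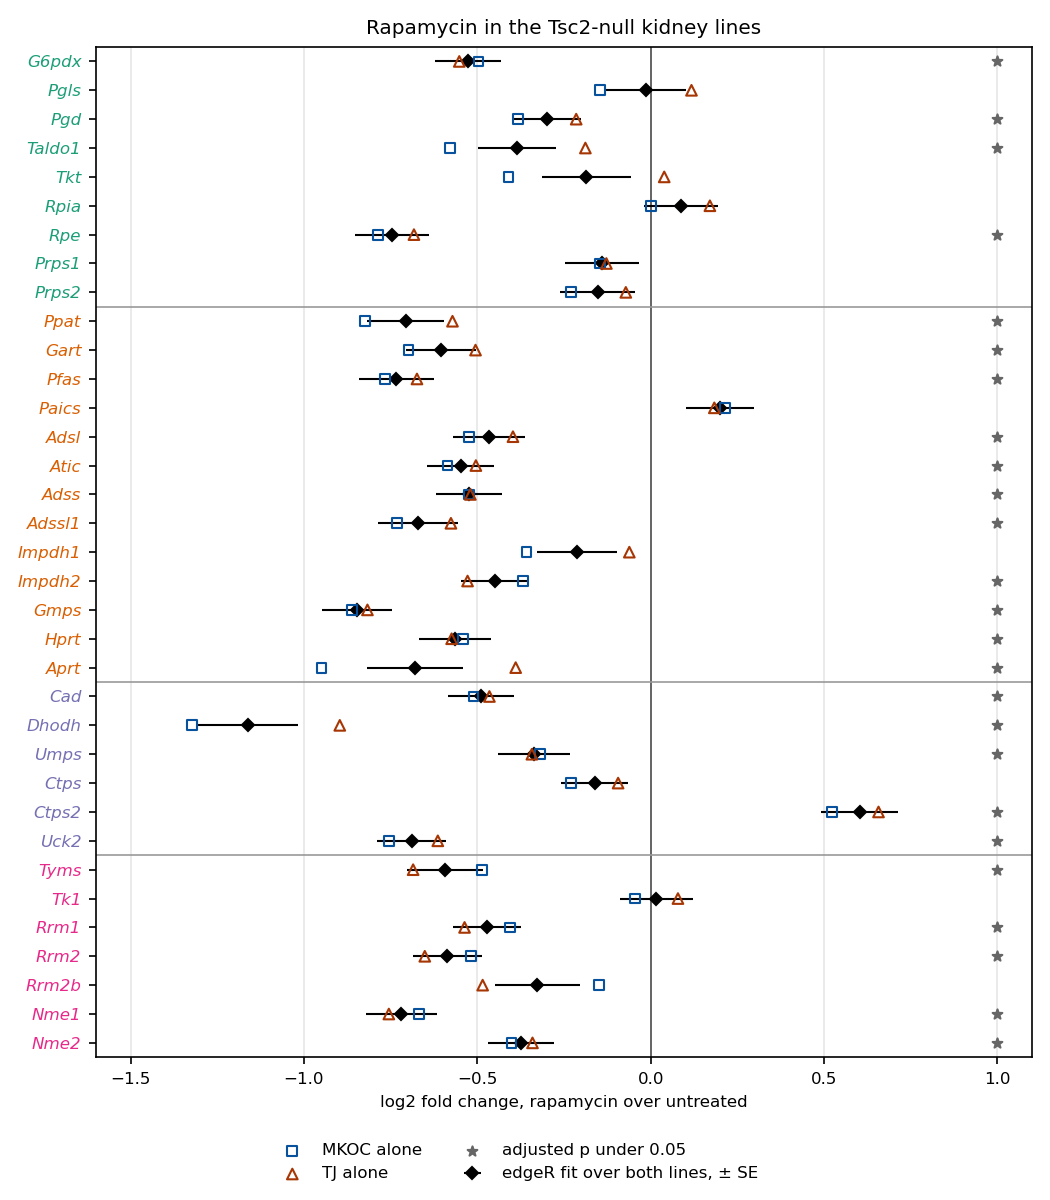
Log2 fold change of each member with rapamycin: diamonds are the edgeR fit over both lines with the standard error, squares and triangles the change in MKOC and TJ cells alone, and stars mark an adjusted p under 0.05. Dhodh lies lowest at -1.16, Ctps2 highest at 0.60, and 29 members lie below 0 in both lines.

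In the oxidative arm of the pentose phosphate pathway, G6pdx (chrX:74409483-74429194, minus strand), which encodes the glucose 6-phosphate dehydrogenase that commits glucose to the pathway, was at 146 and 101 TPM in untreated and treated MKOC cells and 167 and 112 TPM in untreated and treated TJ cells. Both treated libraries lay below both untreated ones (log2 fold change -0.53 ± 0.10, adjusted p = 0.00235). Pgd, the 6-phosphogluconate dehydrogenase of the next NADPH-forming step, was at 179.9 and 141 TPM in untreated and treated MKOC cells and 158 and 138 TPM in untreated and treated TJ cells (log2 fold change -0.30 ± 0.10, adjusted p = 0.0386). This call was lost with upper-quartile factors, DESeq2 and limma, and without the line as a term. Pgls, the lactonase between them, did not pass the test, at 90.0 and 74.0 TPM in untreated and treated MKOC cells and 81.7 and 85.1 TPM in untreated and treated TJ cells (log2 fold change -0.01 ± 0.12, adjusted p = 0.943). The Pgls transcripts shared 19.5% of their 31-base words with Fam129c, and those of G6pdx shared 23.6% with 2 other genes. The closest, G6pd2, held 12.6% of the words of G6pdx and was listed at 0 counts in all 6 libraries. Counts of the other gene were not looked up.

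In the non-oxidative arm, Rpe (chr1:66700831-66719805, plus strand), the epimerase that interconverts ribulose and xylulose 5-phosphates, showed the largest fall of the branch. Its RNA was at 49.5 TPM (Tsc2+/+) and 56.7 TPM (Tsc2-/-) in MEFs, 63.2 and 36.6 TPM in untreated and treated MKOC cells, and 65.8 and 40.4 TPM in untreated and treated TJ cells. In both lines the treated library was lower (log2 fold change -0.75 ± 0.11, adjusted p = 0.000674), and 16.4% of its 31-base words were shared with the neighbouring gene Kansl1l. Taldo1 (chr7:141392199-141402968, plus strand), the transaldolase, was at 69.8 TPM (Tsc2+/+) and 221 TPM (Tsc2-/-) in MEFs, 375 and 251 TPM in untreated and treated MKOC cells, and 312 and 276 TPM in untreated and treated TJ cells. Its fall was larger in MKOC than in TJ cells (-0.58 in MKOC and -0.19 in TJ cells, with a fitted log2 fold change of -0.39 ± 0.11, adjusted p = 0.0245). The call was lost with limma and without the line as a term. Tkt was at 681 and 515 TPM in untreated and treated MKOC cells and 672 and 695 TPM in untreated and treated TJ cells, so the 2 lines did not move the same way (log2 fold change -0.19 ± 0.13, adjusted p = 0.295). Rpia, the isomerase that forms ribose 5-phosphate, was at 59.977 and 57.0 TPM in untreated and treated MKOC cells and 61.2 and 70.5 TPM in untreated and treated TJ cells and did not pass the test (log2 fold change 0.09 ± 0.11, adjusted p = 0.562).

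PRPP synthetase, which activates ribose 5-phosphate for de novo synthesis and for the salvage of bases, is encoded by Prps1 (chrX:140456613-140476140, plus strand) and Prps2 (chrX:167346322-167382749, minus strand). Prps1 was at 72.1 TPM (Tsc2+/+) and 48.6 TPM (Tsc2-/-) in MEFs, 38.8 and 35.2 TPM in untreated and treated MKOC cells, and 43.5 and 39.9 TPM in untreated and treated TJ cells. Prps2 was at 21.4 TPM (Tsc2+/+) and 18.2 TPM (Tsc2-/-) in MEFs, 27.8 and 23.4 TPM in untreated and treated MKOC cells, and 30.1 and 29.2 TPM in untreated and treated TJ cells. Prps1 was above Prps2 in all 6 libraries, and neither passed the rapamycin test (log2 fold change -0.14 ± 0.11, adjusted p = 0.343; log2 fold change -0.15 ± 0.11, adjusted p = 0.303). Both genes lie on the X chromosome, as do G6pdx, Hprt and Ctps2. Prps1 shared 18.5% of its 31-base words with Prps1l3, which had between 566 and 1378 estimated counts, so part of its reads could be divided between the genes.

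Of the 4 genes of the early purine steps, 3 fell with rapamycin. Ppat (chr5:76913249-76951578, minus strand), the amidotransferase that commits PRPP to purines, was at 18.7 TPM (Tsc2+/+) and 37.4 TPM (Tsc2-/-) in MEFs, 47.7 and 25.5 TPM in untreated and treated MKOC cells, and 49.3 and 32.2 TPM in untreated and treated TJ cells. Its treated libraries were both below the untreated ones (log2 fold change -0.71 ± 0.11, adjusted p = 0.00112). Gart (chr16:91621186-91646952, minus strand), a trifunctional enzyme of the route, was at 47.9 TPM (Tsc2+/+) and 68.1 TPM (Tsc2-/-) in MEFs, 108 and 66.1 TPM in untreated and treated MKOC cells, and 85.3 and 60.8 TPM in untreated and treated TJ cells, again lower in each treated library (log2 fold change -0.61 ± 0.10, adjusted p = 0.00147). Pfas (chr11:68985697-69008460, minus strand), the amidotransferase of the following step, was at 12.6 TPM (Tsc2+/+) and 25.2 TPM (Tsc2-/-) in MEFs, 17.6 and 11.7 TPM in untreated and treated MKOC cells, and 18.1 and 12.9 TPM in untreated and treated TJ cells. It fell to 0.60 of the untreated level in the count-based fit (log2 fold change -0.73 ± 0.11, adjusted p = 0.000781), and by less on the log2(TPM + 1) scale, where limma gave a log2 fold change of -0.51. Paics, the bifunctional carboxylase and synthetase that comes next, did not pass the test and was at 279 TPM (Tsc2+/+) and 296 TPM (Tsc2-/-) in MEFs, 322 and 379 TPM in untreated and treated MKOC cells, and 326 and 373 TPM in untreated and treated TJ cells (log2 fold change 0.20 ± 0.10, adjusted p = 0.138). Both treated libraries were above both untreated libraries for Paics, the reverse of Ppat, with which it shares 5′ overlap and 7.51% of its 31-base words.

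Of the later purine steps, Adsl, the lyase used both for the ring and for AMP, was at 127 and 86.8 TPM in untreated and treated MKOC cells and 111 and 87.1 TPM in untreated and treated TJ cells (log2 fold change -0.47 ± 0.10, adjusted p = 0.00672). Atic, which closes the ring to IMP, was at 128 and 86.9 TPM in untreated and treated MKOC cells and 115 and 81.2 TPM in untreated and treated TJ cells (log2 fold change -0.55 ± 0.10, adjusted p = 0.00197). Both treated libraries lay below both untreated ones for each gene. Between 40.4% and 48.5% of the Adsl counts were on transcripts annotated as protein coding, and on those alone its log2 fold change was -0.42.

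IMP is turned toward AMP by adenylosuccinate synthase, encoded by Adss (chr1:177762962-177796511, minus strand) and Adssl1 (chr12:112620045-112641360, plus strand). Adss was at 99.5 TPM (Tsc2+/+) and 50.7 TPM (Tsc2-/-) in MEFs, 141 and 99.0 TPM in untreated and treated MKOC cells, and 153 and 108 TPM in untreated and treated TJ cells. Adssl1 was at 2.60 TPM (Tsc2+/+) and 4.89 TPM (Tsc2-/-) in MEFs, 29.2 and 17.3 TPM in untreated and treated MKOC cells, and 49.5 and 33.1 TPM in untreated and treated TJ cells. Both fell with rapamycin in both lines (Adss, log2 fold change -0.52 ± 0.10, adjusted p = 0.00233; Adssl1, log2 fold change -0.67 ± 0.11, adjusted p = 0.00173). The Adssl1 values in the MEFs rest on the lowest counts of the module, 131 in the Tsc2+/+ library (95% interval from 2.19 to 3.09 TPM) and 122 in the Tsc2-/- library (from 4.10 to 5.84 TPM). Adssl1 was the member that differed most between the untreated kidney lines, and it was higher in each kidney library than in either MEF library.

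The branch from IMP to GMP begins with IMP dehydrogenase, encoded by Impdh1 (chr6:29200434-29216364, minus strand) and Impdh2 (chr9:108560286-108565584, plus strand), and ends with Gmps (chr3:63976106-64022579, plus strand). Impdh1 was at 29.8 TPM (Tsc2+/+) and 65.7 TPM (Tsc2-/-) in MEFs, 57.9 and 47.5 TPM in untreated and treated MKOC cells, and 53.7 and 46.6 TPM in untreated and treated TJ cells. Impdh2 was at 284 TPM (Tsc2+/+) and 174 TPM (Tsc2-/-) in MEFs, 320.4 and 248 TPM in untreated and treated MKOC cells, and 304 and 211 TPM in untreated and treated TJ cells. Impdh2 was the higher of the pair in all 6 libraries and fell with rapamycin (log2 fold change -0.45 ± 0.10, adjusted p = 0.00634), whereas Impdh1 did not pass the test (log2 fold change -0.21 ± 0.11, adjusted p = 0.177); the difference between the 2 changes was not tested. Impdh2 shared 43.7% of its 31-base words with other genes, nearly all with the pseudogene Gm15210, which was listed at up to 10.8 counts. Gmps, GMP synthase, was at 18.8 TPM (Tsc2+/+) and 30.004 TPM (Tsc2-/-) in MEFs, 25.6 and 14.1 TPM in untreated and treated MKOC cells, and 25.6 and 14.5 TPM in untreated and treated TJ cells. It had the second largest fall of the module, to 0.56 of the untreated level in the fit (log2 fold change -0.85 ± 0.10, adjusted p = 0.000237).

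Both members that salvage purine bases fell. Hprt, which returns hypoxanthine and guanine to the nucleotide pool, was at 121 and 82.7 TPM in untreated and treated MKOC cells and 131 and 88.3 TPM in untreated and treated TJ cells (log2 fold change -0.57 ± 0.10, adjusted p = 0.00244). Aprt (chr8:122574635-122576909, minus strand), which does so for adenine, was at 188 TPM (Tsc2+/+) and 314 TPM (Tsc2-/-) in MEFs, 183 and 93.9 TPM in untreated and treated MKOC cells, and 148 and 113 TPM in untreated and treated TJ cells. The fall of Aprt was larger in MKOC than in TJ cells (-0.95 in MKOC and -0.39 in TJ cells; log2 fold change -0.68 ± 0.14, adjusted p = 0.00444), and the difference between the lines was not tested.

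In de novo pyrimidine synthesis, Cad (chr5:31054780-31078479, plus strand), whose protein carries out the opening steps and is a known target of S6 kinase downstream of mTORC1, was at 20.2 TPM (Tsc2+/+) and 51.0 TPM (Tsc2-/-) in MEFs, 52.8 and 37.3 TPM in untreated and treated MKOC cells, and 44.2 and 32.1 TPM in untreated and treated TJ cells. It fell in both lines (log2 fold change -0.49 ± 0.10, adjusted p = 0.00334). Dhodh (chr8:109591343-109608673, minus strand), the mitochondrial dehydrogenase that forms orotate, had the largest change of the module. Its RNA was at 18.7 TPM (Tsc2+/+) and 27.7 TPM (Tsc2-/-) in MEFs, 33.0 and 12.4 TPM in untreated and treated MKOC cells, and 25.2 and 15.9 TPM in untreated and treated TJ cells. Each treated library was below each untreated one and below both MEF libraries, a 2.24-fold fall in the fit (log2 fold change -1.16 ± 0.14, adjusted p = 0.000294). Umps, which converts orotate to UMP, was at 38.1 and 30.6 TPM in untreated and treated MKOC cells and 35.1 and 27.6 TPM in untreated and treated TJ cells (log2 fold change -0.34 ± 0.10, adjusted p = 0.0301). This call was lost with DESeq2 and limma, and without the line as a term.

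CTP synthase is encoded by Ctps (chr4:120539868-120570276, minus strand) and Ctps2 (chrX:162901238-163032508, plus strand). Ctps was at 108 TPM (Tsc2+/+) and 118 TPM (Tsc2-/-) in MEFs, 126 and 109 TPM in untreated and treated MKOC cells, and 146 and 138 TPM in untreated and treated TJ cells and did not pass the test (log2 fold change -0.16 ± 0.10, adjusted p = 0.224). Ctps2 was at 54.8 TPM (Tsc2+/+) and 60.4 TPM (Tsc2-/-) in MEFs, 44.8 and 67.0 TPM in untreated and treated MKOC cells, and 38.1 and 64.1 TPM in untreated and treated TJ cells. It was the only member called higher, with both treated libraries above both untreated ones and a 1.52-fold rise (log2 fold change 0.60 ± 0.11, adjusted p = 0.00252). Ctps stayed above Ctps2 in all 6 libraries. Uck2 (chr1:167222883-167285320, minus strand), the kinase that salvages uridine and cytidine, was at 59.982 TPM (Tsc2+/+) and 100. TPM (Tsc2-/-) in MEFs, 128 and 101 TPM in untreated and treated MKOC cells, and 131 and 99.4 TPM in untreated and treated TJ cells and fell in both lines (log2 fold change -0.69 ± 0.10, adjusted p = 0.000674), with a smaller log2 fold change of -0.37 in limma on log2(TPM + 1).

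The 2 subunits of ribonucleotide reductase used in S phase fell with rapamycin. Rrm1 (chr7:102441695-102469771, plus strand), the large catalytic subunit, was at 40.8 TPM (Tsc2+/+) and 113 TPM (Tsc2-/-) in MEFs, 159.6 and 121 TPM in untreated and treated MKOC cells, and 133 and 91.8 TPM in untreated and treated TJ cells (log2 fold change -0.47 ± 0.10, adjusted p = 0.00466). Rrm2 (chr12:24708241-24714146, plus strand), the small subunit of cycling cells, was at 17.0 TPM (Tsc2+/+) and 44.5 TPM (Tsc2-/-) in MEFs, 419.9 and 294 TPM in untreated and treated MKOC cells, and 491 and 316 TPM in untreated and treated TJ cells (log2 fold change -0.59 ± 0.10, adjusted p = 0.00175). Rrm2b (chr15:37923952-37961318, minus strand), the p53-inducible small subunit, was at 11.3 TPM (Tsc2+/+) and 14.8 TPM (Tsc2-/-) in MEFs, 17.4 and 13.0 TPM in untreated and treated MKOC cells, and 18.5 and 14.6 TPM in untreated and treated TJ cells and did not pass the test (log2 fold change -0.33 ± 0.12, adjusted p = 0.0629), although with no filter on low counts it did. Rrm2 exceeded Rrm2b in all 6 libraries, and the gap was wider in the kidney lines than in the MEFs.

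For thymidylate, Tyms (chr5:30058202-30073617, minus strand), thymidylate synthase, was at 24.4 TPM (Tsc2+/+) and 113 TPM (Tsc2-/-) in MEFs, 153 and 99.7 TPM in untreated and treated MKOC cells, and 137 and 75.6 TPM in untreated and treated TJ cells. It fell in both lines (log2 fold change -0.59 ± 0.11, adjusted p = 0.00244), but only 31.8% to 46.1% of its counts lay on transcripts annotated as protein coding, and on those the log2 fold change was -0.31 and missed the threshold (adjusted p from 4.08e-05 to 0.0924 over the 7 alternatives). Tk1 (chr11:117815526-117826092, minus strand), the S-phase thymidine kinase, was at 11.6 TPM (Tsc2+/+) and 61.9 TPM (Tsc2-/-) in MEFs, 101 and 98.4 TPM in untreated and treated MKOC cells, and 86.6 and 89.9 TPM in untreated and treated TJ cells. Its treated and untreated kidney libraries overlapped, and it did not pass the test (log2 fold change 0.02 ± 0.11, adjusted p = 0.923).

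Nucleoside diphosphate kinases, which balance the triphosphate pools, are encoded by the adjacent genes Nme1 (chr11:93956979-93968521, minus strand) and Nme2 (chr11:93949814-93956259, minus strand). Nme1 was at 72.4 TPM (Tsc2+/+) and 219.6 TPM (Tsc2-/-) in MEFs, 134 and 93.7 TPM in untreated and treated MKOC cells, and 152 and 93.2 TPM in untreated and treated TJ cells and fell in both lines (log2 fold change -0.72 ± 0.10, adjusted p = 0.000673). Nme2 was at 607 TPM (Tsc2+/+) and 821 TPM (Tsc2-/-) in MEFs, 531 and 422 TPM in untreated and treated MKOC cells, and 415 and 308 TPM in untreated and treated TJ cells (log2 fold change -0.37 ± 0.10, adjusted p = 0.0131). Nme2 was above Nme1 in all 6 libraries, and every treated library was below the untreated library of its line for both genes. Both share sequence with Gm20390, a read-through of the 2 genes with 1737 to 4491 estimated counts, to which 47.9% of the 31-base words of Nme2 and 11.7% of those of Nme1 also belong.

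**Figure D3:**
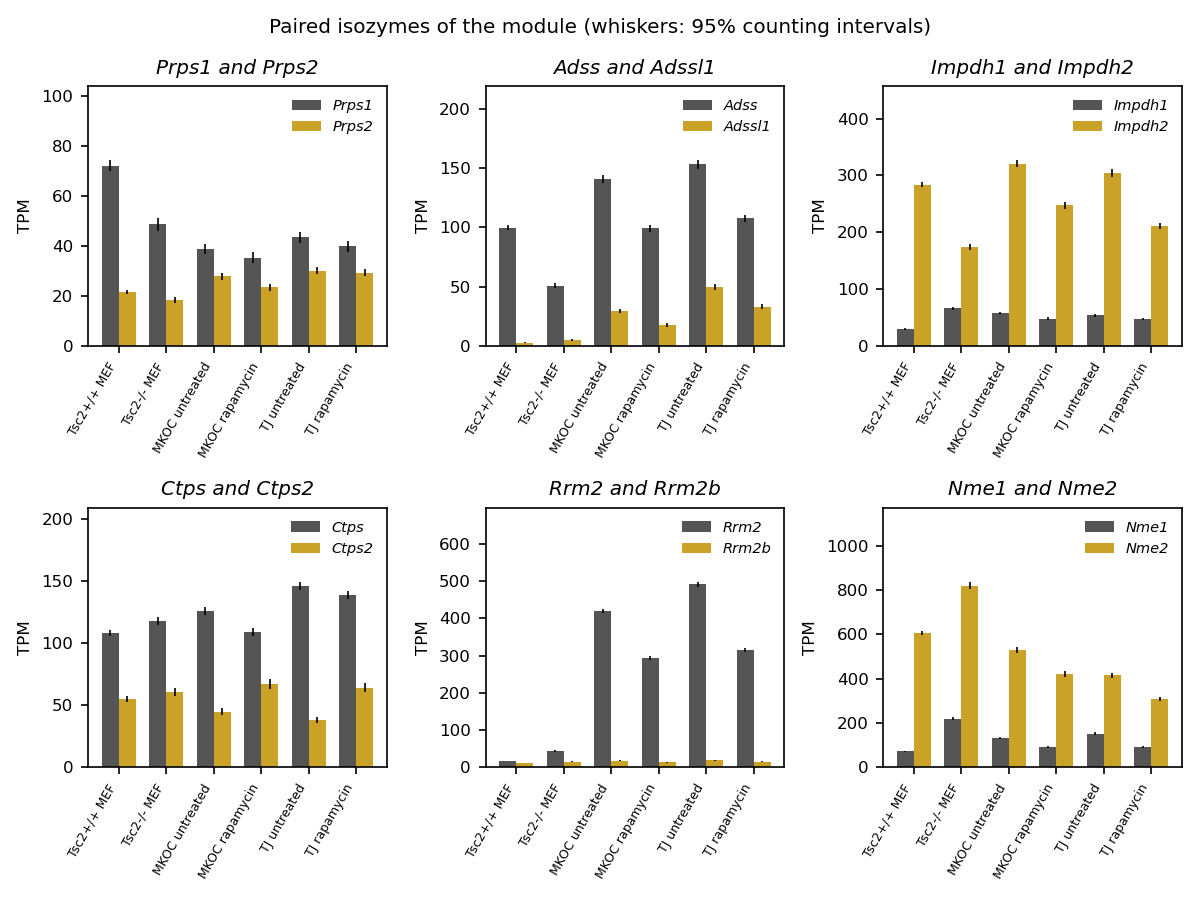
TPM of the paired isozymes in the 6 libraries, with whiskers for the 95% counting interval; each bar is 1 library. Rrm2 rises from 17.0 TPM in Tsc2+/+ MEFs to 491 TPM in untreated TJ cells while Rrm2b stays between 11.3 and 18.5 TPM.

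Other genes of nucleotide metabolism were called in both directions. Of 49 further genes, 44 were tested, and 11 were lower and 5 higher with rapamycin, beside 17.4% and 17.5% of all genes, with a median log2 fold change of -0.19. Nt5e, the cell-surface nucleotidase, fell (log2 fold change -1.88 ± 0.21, adjusted p = 0.000157), as did Ada, adenosine deaminase (log2 fold change -1.27 ± 0.17, adjusted p = 0.000437). H6pd, the glucose 6-phosphate dehydrogenase of the endoplasmic reticulum, rose (log2 fold change 1.29 ± 0.11, adjusted p = 3.32e-05), from 38.1 to 80.8 TPM in MKOC and from 49.6 to 138 TPM in TJ cells, while its cytosolic counterpart G6pdx fell. Gda, guanine deaminase, also rose (log2 fold change 1.56 ± 0.33, adjusted p = 0.00482), at no more than 3.35 TPM in the kidney libraries and mostly in TJ cells (log2 change 1.52, against 0.41 in MKOC cells). Of 28 genes of S phase and mitosis, 7 were called lower, beside 17.4% of all genes, with a median log2 fold change of -0.22, and Mki67, a marker of cycling cells, did not pass the test (log2 fold change 0.27 ± 0.12, adjusted p = 0.097). The part of that list in the changes of the deoxynucleotide genes was not tested.

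Genes of a cofactor and regulator list were also mostly called lower. Most of that list feeds carbon and nitrogen into nucleotides or regulates their enzymes. It also holds genes outside that description, among them Nqo1 and Txnrd1, both called lower. Of the 21 genes listed, 14 were lower and 2 higher, beside 17.4% and 17.5% of all genes, with a median log2 fold change of -0.57. Mthfd2, the mitochondrial enzyme of one-carbon supply, was at 187 and 81.7 TPM in untreated and treated MKOC cells and 205 and 66.0 TPM in untreated and treated TJ cells (log2 fold change -1.43 ± 0.12, adjusted p = 3.06e-05). Shmt2, which passes a carbon from serine to folate, fell (log2 fold change -1.42 ± 0.10, adjusted p = 1.43e-05), as did Psph, the last enzyme of serine synthesis (log2 fold change -2.52 ± 0.11, adjusted p = 1.79e-06), and Asns, asparagine synthetase (log2 fold change -1.56 ± 0.11, adjusted p = 1.43e-05). The RNA of Atf4, a transcription factor known to act on these genes, fell (log2 fold change -1.05 ± 0.11, adjusted p = 0.00011) and that of Myc rose (log2 fold change 0.45 ± 0.10, adjusted p = 0.00591).

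In the MEFs, 8 of the 35 members were at least 2-fold higher in the Tsc2-/- library than in the Tsc2+/+ library and 0 were at least 2-fold lower, on the ratio of TPM with 1 added. Of 12771 genes with at least 1 TPM in 1 of the 2 libraries, 25.2% were at least 2-fold higher and 5.18% at least 2-fold lower. The median log2 ratio was 0.65 over the members and 0.45 over all genes. Each group had 1 library, so these differences have no replicate check. The 7377 genes with at least 10 TPM in both libraries had a median ratio of 1.31 (log2 0.39), and transcripts under 300 bases took up 20.9% of TPM in the Tsc2+/+ library against 7.12% in the Tsc2-/- library. With that median set to 1, 5 members were at least 2-fold higher, against 16.9% of all genes, and 2 at least 2-fold lower, against 8.88%, with medians of 0.27 and 0.09. Of all genes past 2-fold, 83.0% were higher as deposited and 65.6% after scaling. The members above 0 numbered 29 as deposited and 22 after scaling.

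Most of the larger differences were in the deoxynucleotide branch, where 5 of 7 genes were at least 2-fold higher as deposited and 4 after scaling. Tk1 differed most, at 11.6 and 61.9 TPM, 4.97-fold (log2 2.31, and 1.95 after scaling). Tyms was 4.49-fold (log2 2.17, and 1.79 after scaling) higher and Nme1 3.01-fold (log2 1.59, and 1.20 after scaling). Rrm1 was 2.72-fold (log2 1.44, and 1.06 after scaling) higher and Rrm2 2.53-fold (log2 1.34, and 0.97 after scaling). Rrm2 was under 2-fold after scaling, and Rrm2b and Nme2 stayed under 2-fold either way. In the same libraries 16 of the 28 S phase and mitosis genes were at least 2-fold higher, 10 after scaling, beside 25.2% and 16.9% of all genes, and Mki67 was at 7.03 and 17.9 TPM; the part of this and of the mesothelial markers in the deoxynucleotide differences was not tested.

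In the other branches, Taldo1 was 3.14-fold (log2 1.65, and 1.26 after scaling) higher in Tsc2-/- MEFs, and its neighbours in the pathway differed less, with Tkt at 143 and 172 TPM and G6pdx at 118 and 112 TPM. Cad was 2.46-fold (log2 1.30, and 0.92 after scaling) higher, so under 2-fold after scaling. Impdh1 was 2.17-fold (log2 1.12, and 0.74 after scaling) higher, whereas Impdh2 was lower, at 284 and 174 TPM (log2 ratio -0.71, and -1.09 after scaling). Adss was lower as well, at 99.5 and 50.7 TPM (log2 ratio -0.96, and -1.35 after scaling), and these 2 genes were the members at least 2-fold lower after scaling. The pairs Impdh1 with Impdh2, and Adss with Adssl1, thus had ratios of opposite sign as deposited and after scaling. Prps1, Prps2, Hprt and G6pdx were also below 0 under both, while Tkt, Rpe, Paics, Atic, Ctps, Ctps2 and Rrm2b were above 0 as deposited and at or below 0 after scaling.

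**Figure D4:**
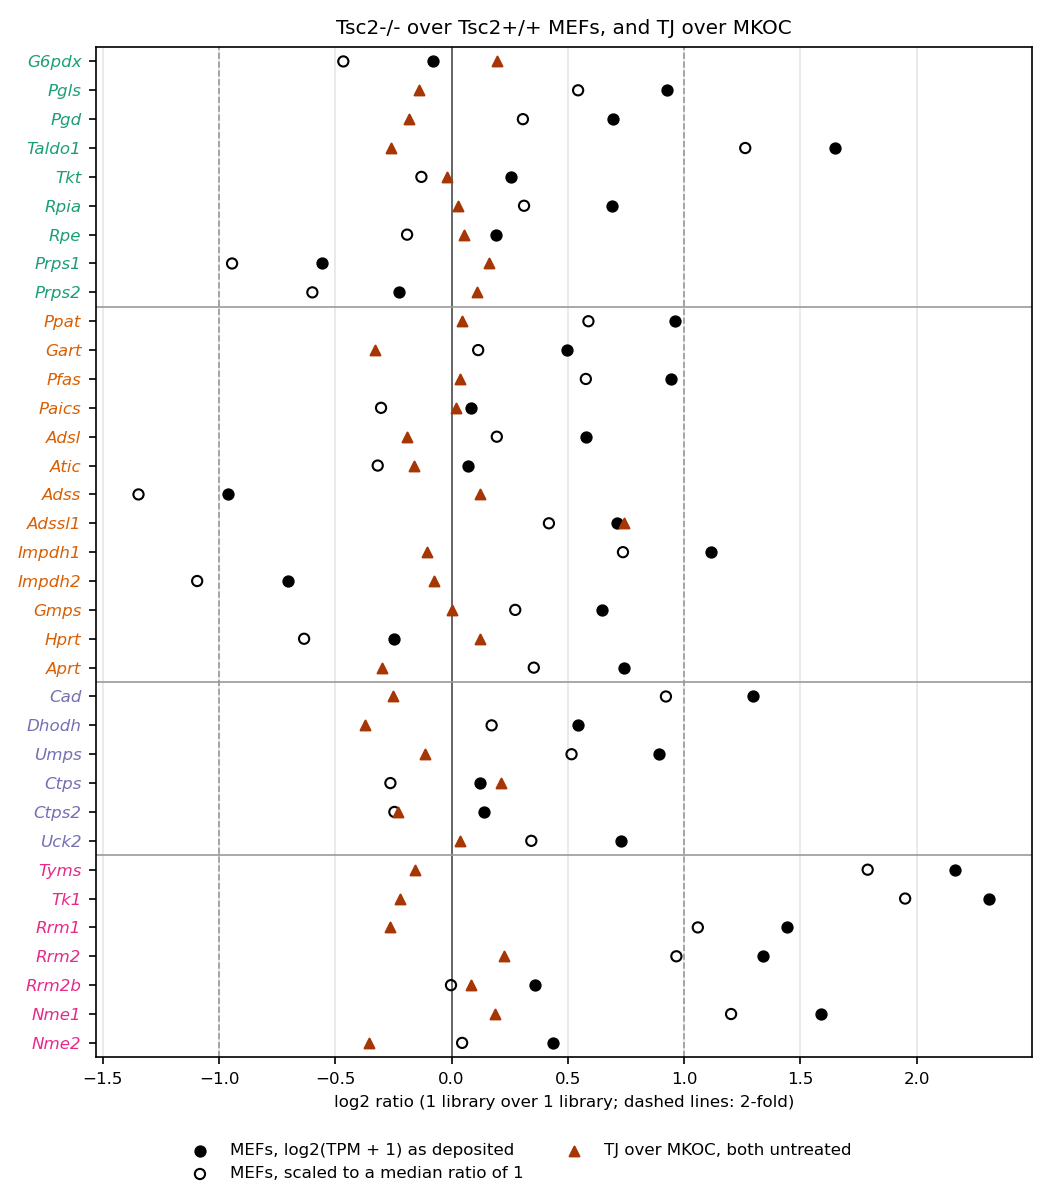
Log2 ratio of each member between the MEF libraries as deposited (filled circles) and with the median ratio of genes at 10 TPM or more set to 1 (open circles), and between the untreated kidney lines (triangles); dashed lines mark 2-fold. Tk1 is highest at 2.31 and Adss lowest at -0.96 in the MEFs, and the triangles lie between -0.37 and 0.74.

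Between the untreated kidney lines, 0 members were at least 2-fold apart in either direction, against 2.01% of 11950 genes at least 2-fold higher in TJ cells and 0.887% at least 2-fold lower. This comparison has 1 library a side and uses the same untreated libraries as the rapamycin comparison. The median log2 ratio of TJ over MKOC was -0.02 over the members and 0.01 over all genes. The largest difference was that of Adssl1, at 29.2 TPM in MKOC and 49.5 TPM in TJ cells (1.67-fold), and the lowest ratio was that of Dhodh, at 33.0 and 25.2 TPM (log2 -0.37). Above 0 were 17 members, and 18 were below.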

How the data were processed

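RNA-Seq libraries from 2 MEF cultures and 4 kidney cultures were poly(A)-selected and stranded. The authors trimmed paired-end reads, ran Kallisto (version not given in the sources used here) and deposited estimated counts and TPM for 88198 mouse transcripts, although the study's methods name a human reference. The authors also deposited a fold change (a ratio) between the MEFs, of which only the gene symbols were used. Estimated counts and TPM were summed per symbol. For rapamycin, sums were rounded, filtered with filterByExpr, scaled by TMM and fitted by the quasi-likelihood method of edgeR, with the line as a term and Benjamini-Hochberg adjustment. The labels name the line of each library, and the deviations of the 2 libraries of a line from the treatment means had a correlation of 0.61 over 12952 genes. MEFs, and untreated TJ and MKOC cells, were compared by the ratio of TPM + 1 among genes with at least 1 TPM in 1 of the libraries, with no test. Standard errors of log2 fold changes are given after ±. They were derived from the edgeR test, as the absolute log2 fold change divided by the square root of its F statistic.

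The members, lists and tests were chosen with earlier results of these data known. All 35 members were named, with every library's value for the 12 largest called changes, those past 2-fold, and 6 isozyme pairs. Of other lists, genes past the threshold and 2-fold were named, up to 4 a list, besides Tsc2, Trp53, Mki67, Myc, Atf4 and Mthfd2. Marker genes named individually, and the restriction to protein-coding transcripts, were chosen after the data were seen. Positions come from GENCODE M21 (GRCm38). Shared sequence was measured as 31-base words of a gene's transcripts that occur in other genes. Alternatives were RLE and upper-quartile factors, DESeq2, limma on log2(TPM + 1), no filter, no line term, each line alone, other pseudocounts, scaling, CPM and a 1.5-fold threshold. The edgeR fit was tested on simulated counts, and the ratio step on a real library with known changes put in. The other steps had no such test. Statistics were run in R 4.3.3 with DESeq2 1.42.0, limma 3.58.1 and edgeR 4.0.16, and sums, ratios and plots in Python 3.11.15 with pandas 2.3.3, scipy 1.17.1, numpy 2.4.6 and matplotlib 3.10.9. Human libraries and protein data were not analysed here.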

Additional observations from a re-analysis of the deposited data

Results flagged for a closer look

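For 3 members the change with rapamycin had opposite signs in the 2 kidney lines, each with 1 library per treatment, so the difference between the lines was not tested. Tkt was lower in treated MKOC cells (log2 -0.41) and slightly higher in treated TJ cells (0.04), a difference of 0.45 for TJ minus MKOC. Pgls changed by -0.15 and 0.12, a difference of 0.26, and Tk1 by -0.05 and 0.08, a difference of 0.12.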

How the results depend on the processing

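The count of 24 members called lower with rapamycin was 24 with RLE factors, 23 with upper-quartile factors, 22 with DESeq2, 21 with limma, 25 with no filter on low counts and 23 with protein-coding transcripts, and it dropped to 11 without the line as a term. Over all genes tested, the share called lower was 17.2%, 15.5%, 12.4%, 14.2%, 12.3%, 18.3% and 5.53% in that order. Ctps2 stayed the 1 member called higher in all 7. No member changed sign while called. With each line alone there is no test, and each line's change is given in the plot of rapamycin changes. The 8 members at least 2-fold higher in Tsc2-/- MEFs became 5 after scaling to a median ratio of 1, 6 in CPM (18.2% of all genes) and 18 at 1.5-fold (42.8%), and the 0 lower became 2 after scaling, 2 in CPM (7.92% of all genes) and 2 at 1.5-fold (9.65%). Pseudocounts of 0.1, 0.5 and 5 TPM, no filter and protein-coding transcripts kept the first count within 1.5 times of 8. Between untreated TJ and MKOC cells, 1 member (Adssl1) was higher at 1.5-fold, beside 5.41% of all genes. The fit with the line as a term already pairs the treated and untreated library of each line, and the labels carry no replicate numbers for another pairing. With 1 library per condition, counting intervals do not cover the spread between cultures, and reads shared between near-identical genes limit Nme2, Impdh2, G6pdx and Prps1.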

Other observations

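Nucleoside carriers, which import the substrates of the salvage enzymes, were tested for 4 of 7 genes, of which 2 were lower and 2 higher with rapamycin, beside 17.4% and 17.5% of all genes. Slc28a3, a concentrative carrier, rose (log2 fold change 2.40 ± 0.41, adjusted p = 0.00161), at no more than 3.14 TPM in these libraries and mostly in TJ cells (log2 change 2.14, against 0.38 in MKOC cells). Of 14 genes known as p53 targets or regulators, 5 were lower and 2 higher with rapamycin, beside the same shares of all genes, with a median of -0.20. Cdkn1a, which encodes the cell cycle inhibitor p21, was at 77.3 and 32.4 TPM in untreated and treated MKOC cells and at 77.0 and 32.1 TPM in untreated and treated TJ cells (log2 fold change -1.27 ± 0.11, adjusted p = 3.06e-05). Sesn2, known to restrain mTORC1, fell as well (log2 fold change -1.40 ± 0.14, adjusted p = 8.74e-05), as did Eda2r, a receptor of the tumor necrosis factor receptor family (-1.93 ± 0.39, adjusted p = 0.00421), at no more than 1.12 TPM in the kidney libraries. Bbc3, which encodes the pro-apoptotic protein PUMA, rose (1.11 ± 0.24, adjusted p = 0.00538), and the other higher call was Trp53inp1 (0.37 ± 0.11, adjusted p = 0.0236), named after its value was seen. In the MEFs, 13 of 44 other nucleotide genes were at least 2-fold higher in the Tsc2-/- library, beside 25.2% of all genes. After scaling, 5 were higher, beside 16.9% of all genes, and 2 at least 2-fold lower, beside 8.88%.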
